A study of Homo sapiens with 6 samples.

Results

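The genes examined were the integrins and laminins of WM164, a human melanoma cell line, in cells carrying an HDAC8 expression vector or an empty vector. The family was chosen with earlier results of these data known, and its members were then taken by name alone. Every protein-coding row of the count table whose symbol is ITGA or ITGB followed by a digit, 1 of the lettered integrin alpha symbols, or LAMA, LAMB or LAMC followed by a digit was taken, which gave 41 of 60504 genes. Of these, 38 encode chains of the receptors or of the matrix proteins themselves: 18 integrin alpha chains, 8 integrin beta chains and 12 laminin chains. The other 3 match the symbol without being chains. ITGB1BP1 and ITGB1BP2 encode proteins named for binding an integrin tail, and ITGB3BP encodes a centromere protein.

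Integrins are receptors made of 1 alpha and 1 beta chain that tie the matrix outside a cell to actin inside it, and the pair of chains sets which matrix protein is bound. Laminins are cross-shaped proteins of 1 alpha, 1 beta and 1 gamma chain that form the sheet of the basement membrane and are themselves bound by a subset of the integrins. In skin, melanocytes sit on such a sheet, and melanoma cells that leave the epidermis cross it.

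The EV group holds 3 libraries from WM164 cells with an empty expression vector, and the HDAC8 group 3 libraries from the same line with an HDAC8 expression vector. HDAC8 is a class I histone deacetylase, and the comparison asks how gene expression differs when it is introduced. Cells of both groups carry the BRAFV600E genotype, were transfected with plasmid and were kept under hygromycin. The labels number the libraries of each group as biological replicates without saying whether they came from separate transfections, so p-values measure the spread between these libraries. The samples are bulk RNA, in which fewer cells of a type and less RNA per cell cannot be told apart.

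Total counts ran from 34741083 to 42041462 per library and overlapped between the groups. The HDAC8 libraries differed among themselves: on a principal component that carried 18% of the variance, HDAC8 1 (43.7) and HDAC8 2 (-47.1) lay at opposite ends and HDAC8 3 (8.37) between them. The share of counts from mitochondrial transcripts was 9.66% to 12.8% under EV and 4.46% (HDAC8 1) to 7.94% under HDAC8, so this share moved with the groups without overlap, and its part in the integrin and laminin differences was not tested. Among the 26 integrin and laminin genes whose mean normalized count was 100 or more, HDAC8 1 was the HDAC8 library set off from the other 2 in 21, at the high or the low end with the others closer together. The same count was not made over all genes, so it is not given as a trait of these genes. Over the table, chi-square over its degrees of freedom was 167.6 and 112 for HDAC8 1 paired with HDAC8 2 and HDAC8 3. It was 27.55 for HDAC8 2 with HDAC8 3. HDAC8 itself had normalized counts of 384, 404 and 479 (EV libraries) against 485, 446 and 474 (HDAC8 libraries), and its log2 change was 0.15 (SE 0.28, DESeq2 adjusted p = 0.856). The groups overlapped, so this transcript is no check of the labels, and directions are given for libraries labelled HDAC8 relative to libraries labelled EV. Of 8 melanocytic marker genes, all were detected and 5 were lower in the HDAC8 libraries, with summed normalized counts of 2.45e+05 to 3.288e+05 against 1.37e+05 to 1.822e+05.

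Integrin and laminin genes were called in both directions. Following the thresholds in the study's methods, a call required a DESeq2 adjusted p under 0.05 together with a log2 fold change of 0.58 or more in either direction. A figure legend of the study gives an unadjusted p under 0.05 instead, which was not used here. Of the 41 genes, 39 had a total count of at least 10, 37 received an adjusted p, and 12 were called. The 7 higher genes were the integrin chains ITGA1, ITGA2, ITGA3, ITGB5 and ITGB8 and the laminin chains LAMB1 and LAMB3. The 5 lower genes were ITGAX, ITGA9, LAMA1, LAMA5 and the tail-binding ITGB1BP1. These are 32.4% of the 37, beside 11% of the 21021 genes with an adjusted p in the whole table (5.57% higher and 5.44% lower). Among genes whose mean normalized count was 100 or more the shares were 46.2% of 26 and 15.1% of 12756, of which 7.9% were higher and 7.15% lower. Calls were more frequent among genes of high count, so both pairs of shares are given. Because the family was chosen with earlier results of these data known, its shares are a description and no test. The median log2 fold change of the 26 was 0.02 and that of the 12756 was -0.001. In 13 of the 26 (the 12 called genes and ITGB1) the groups did not overlap, against 36.4% of all genes at that level and 24% of all genes tested. edgeR called the same number of members in each direction, beside 8.12% of the genes it tested.

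**Figure D1:**
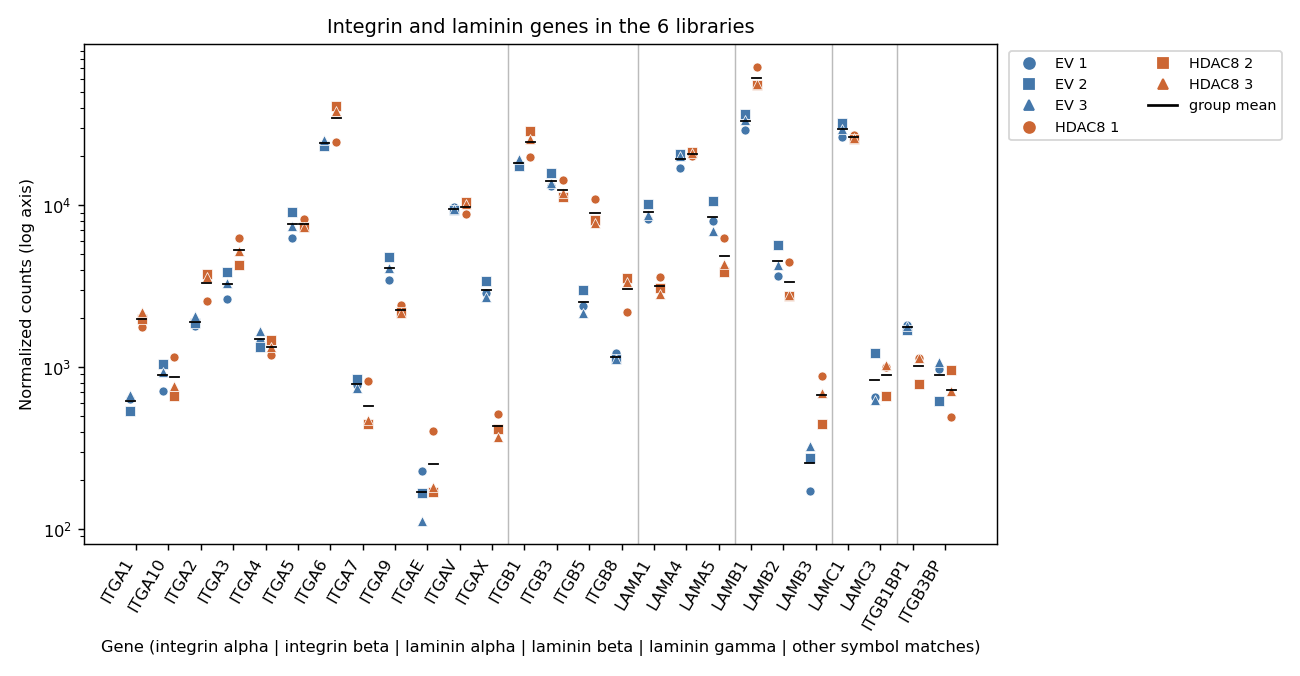
Normalized counts (log axis) of the 26 integrin and laminin genes with a mean of at least 100, ordered by chain class along the horizontal axis, with EV libraries in blue, HDAC8 libraries in orange, a marker shape for each replicate number and a black bar at each group mean. ITGAX and LAMA1 lie lower in all 3 HDAC8 libraries, ITGB5, ITGA1 and ITGB8 lie higher in all 3, and HDAC8 1 is often set off from HDAC8 2 and HDAC8 3.

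**Figure D2:**
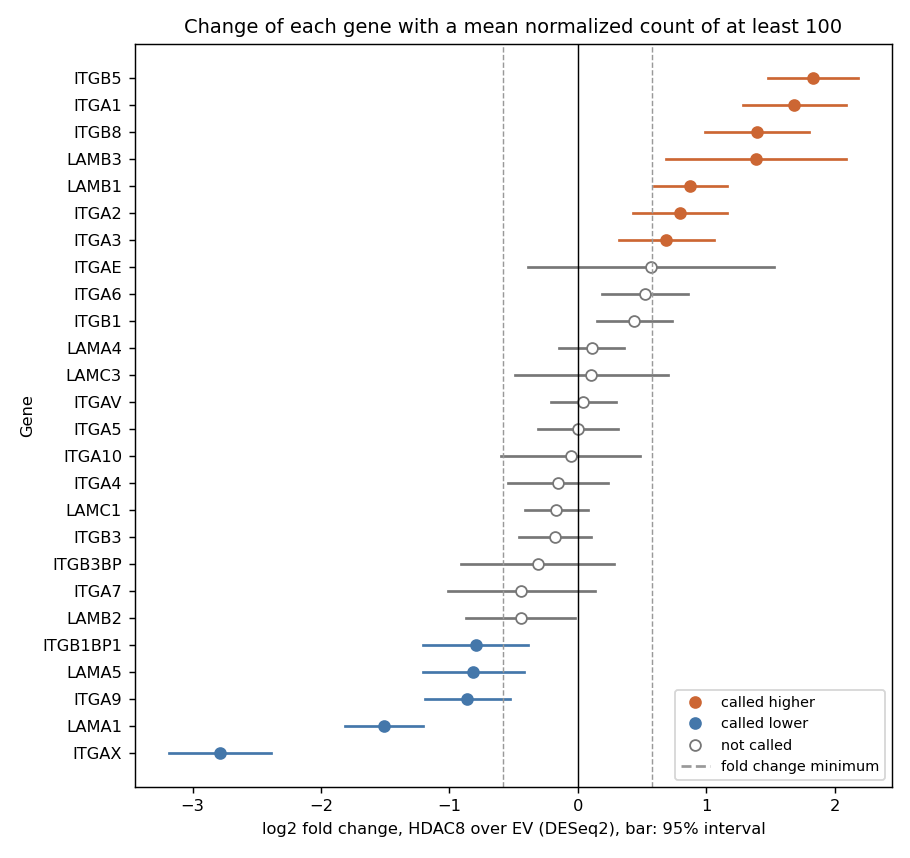
Log2 fold change of HDAC8 over EV (DESeq2, 3 libraries a group) for the same 26 genes, with bars for the 95% interval and dashed lines at the fold change minimum of 0.58. Filled points are called genes, from ITGAX at -2.79 to ITGB5 at 1.83.

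Promoters were examined, and a few printed, as far as RefSeq entries were at hand. These cover 29 of the 41 genes and 8 of the 12 called ones, and hold 250 bases before and 50 after a transcript start (GRCh38.p14). Each was searched on both strands for TGANTCA, the AP-1 site, GGAATG, the site of TEAD factors, CACGTG, a general E-box, and TCATGTG, an M-box form of E-box used by MITF. None of the 8 called genes with an entry held any of the 4 sets of letters in that window. TGANTCA stood in 2 of the 29 members (6.9%) and 7.71% of all 35116 promoters, GGAATG in 4 (13.8%) and 14%, CACGTG in 1 (3.45%) and 7.26%, and TCATGTG in 2 (6.9%) and 2.92%. LAMA3, whose values were not called, was the member with 2 matches to TGANTCA, at bases -125 and -69 from its start, and TCATGTG overlapped the first of them at -121. Its entry starts inside the span of the gene, at a start downstream of the first. Matches are a description of the letters and do not show binding. The 250 bases before the start are shown for ITGB5 and LAMA5, the called chains with the largest rise and the largest fall among those with an entry, and for LAMA3, where capitals mark the matches. ITGB5 lies at chr3:124901419-124901668 (minus strand), LAMA5 at chr20:62367313-62367562 (minus strand) and LAMA3 at chr18:23872770-23873019 (plus strand), and all are written 5′ to 3′ on the strand of the gene.
ITGB5: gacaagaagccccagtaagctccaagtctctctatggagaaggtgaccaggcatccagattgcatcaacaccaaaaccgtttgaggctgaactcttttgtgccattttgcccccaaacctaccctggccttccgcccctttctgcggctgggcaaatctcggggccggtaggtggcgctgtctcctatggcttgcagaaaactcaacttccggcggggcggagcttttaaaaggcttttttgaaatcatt
LAMA5: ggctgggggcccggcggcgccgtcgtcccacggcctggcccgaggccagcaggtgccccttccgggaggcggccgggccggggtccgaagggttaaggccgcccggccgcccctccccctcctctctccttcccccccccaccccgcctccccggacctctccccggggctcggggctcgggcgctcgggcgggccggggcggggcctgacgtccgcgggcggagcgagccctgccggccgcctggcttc
LAMA3: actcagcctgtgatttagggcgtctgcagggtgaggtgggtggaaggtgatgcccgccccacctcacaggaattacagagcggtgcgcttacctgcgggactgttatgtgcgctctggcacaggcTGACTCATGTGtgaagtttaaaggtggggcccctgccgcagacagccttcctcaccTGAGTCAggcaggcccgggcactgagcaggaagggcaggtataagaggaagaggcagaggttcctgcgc

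Among integrin beta chains, ITGB5 and ITGB8 rose and none was called lower. Both chains pair with the alpha chain ITGAV. The ITGB5 pair binds vitronectin, and the ITGB8 pair binds latent TGF-beta. ITGB5 (ENSG00000082781, chromosome 3, 124761948 to 124901418, minus strand, GRCh38, from GENCODE release 44 like all gene positions here) gave normalized counts of 2375, 2981 and 2171 (EV libraries) against 10935, 8055 and 7748 (HDAC8 libraries). Every HDAC8 library was above every EV library, with HDAC8 1 the highest. The mean rose from 2509 ± 421 to 8912 ± 1758 (SD, n = 3), a log2 change of 1.83 (SE 0.18, DESeq2 adjusted p = 4.62e-22) or 3.55-fold. ITGB8 (ENSG00000105855, chromosome 7, 20330702 to 20415754, plus strand) gave normalized counts of 1215, 1122 and 1124 (EV libraries) against 2197, 3537 and 3358 (HDAC8 libraries). Here the EV libraries lay close together and HDAC8 1 was the lowest of the HDAC8 libraries, still above all EV values. Its log2 change was 1.39 (SE 0.21, DESeq2 adjusted p = 1.05e-09).

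The common beta chain ITGB1, which pairs with most alpha chains, had normalized counts of 18072, 17498 and 19161 (EV libraries) against 19835, 28571 and 25668 (HDAC8 libraries). The groups did not overlap, but HDAC8 1 lay close to EV 3. Its log2 change of 0.44 (SE 0.15, DESeq2 adjusted p = 0.0305) was below the fold change minimum, so it was not called, and edgeR's quasi-likelihood test gave an adjusted p of 0.108. ITGB3, the other beta chain of high level, pairs with ITGAV in melanoma cells and with ITGA2B in platelets. Its normalized counts of 13054, 15801 and 13629 (EV libraries) against 14217, 11306 and 11942 (HDAC8 libraries) overlapped between the groups, and its log2 change was -0.18 (95% interval -0.46 to 0.10, DESeq2 adjusted p = 0.511). A longer gene model on the same strand, AC068234.1, shares 2266 exon bases with ITGB3, so reads from these bases could be counted under either. It was listed at 0, 249.4 and 0 (EV libraries) against 8.60, 541 and 0 (HDAC8 libraries). The platelet markers PF4, PPBP and GP9 were at 0 in all libraries.

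ITGAV, the alpha chain shared by ITGB3, ITGB5 and ITGB8, had normalized counts of 9713, 9338 and 9491 (EV libraries) against 8788, 10496 and 10125 (HDAC8 libraries). These overlapped, with a log2 change of 0.04 (95% interval -0.21 to 0.30, DESeq2 adjusted p = 0.922). ITGA5, the alpha chain of the main fibronectin receptor, had a log2 change of 0.002 (95% interval -0.31 to 0.31, DESeq2 adjusted p = 0.997) with means of 7617 ± 1405 and 7629 ± 482 normalized counts in the EV and HDAC8 libraries. Of the 4 alpha chains that recognise the RGD tripeptide, none was called. ITGA2B was at or under 44.6 normalized counts, and ITGA8 had no count.

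Of the 4 collagen-binding alpha chains, ITGA1 and ITGA2 rose. Each pairs with ITGB1. ITGA1 (ENSG00000213949, chromosome 5, 52787916 to 52959209, plus strand) gave normalized counts of 639, 535 and 669.9 (EV libraries) against 1758, 1979.7 and 2191 (HDAC8 libraries). The HDAC8 libraries lay well above the EV libraries and close to each other. Its log2 change was 1.69 (SE 0.20, DESeq2 adjusted p = 1.56e-14), 3.22-fold. PELO, a gene on the same strand whose exons share 499 bases with ITGA1, rose as well (log2 change 0.81, DESeq2 adjusted p = 0.011), with normalized counts of 492, 589 and 445 (EV libraries) against 962, 838 and 873 (HDAC8 libraries). Reads from the shared bases cannot be assigned to 1 of them, and their part in either rise was not tested. ITGA2 (ENSG00000164171, chromosome 5, 52989340 to 53094779, plus strand), the neighbour of ITGA1 on chromosome 5, had normalized counts of 1795, 1863 and 2069 (EV libraries) against 2570.4, 3730.0 and 3612 (HDAC8 libraries). Again HDAC8 1 was the lowest HDAC8 library and above every EV library, and the log2 change was 0.79 (SE 0.19, DESeq2 adjusted p = 4.59e-04). ITGA10, a chain of cartilage, overlapped between groups with a log2 change of -0.06 (95% interval -0.60 to 0.48, DESeq2 adjusted p = 0.956), and ITGA11 reached at most 142 normalized counts.

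Of the 3 laminin-binding alpha chains, ITGA3 was called higher and ITGA6 and ITGA7 were not called. ITGA3 (ENSG00000005884, chromosome 17, 50055968 to 50090481, plus strand) gave normalized counts of 2629.9, 3861 and 3285 (EV libraries) against 6267, 4290.2 and 5204 (HDAC8 libraries). The groups did not overlap, although HDAC8 2 lay close to EV 2. The log2 change was 0.69 (SE 0.19, DESeq2 adjusted p = 0.00386). It was the 1 called member of 12 whose call depended on a single library, at 0.55 without EV 1 (DESeq2 adjusted p = 0.0799) and 0.54 without HDAC8 1 (DESeq2 adjusted p = 0.0129, under the fold change minimum). ITGA6, a receptor chain for most laminins and the alpha chain of highest level per kb of transcript, had normalized counts of 23726, 23236 and 25143 (EV libraries) against 24696, 40856 and 37905 (HDAC8 libraries). HDAC8 1 lay among the EV values and the other 2 HDAC8 libraries far above them. The log2 change was 0.52 (SE 0.17, DESeq2 adjusted p = 0.0216, edgeR adjusted p = 0.0628) with all libraries and 0.71 without HDAC8 1 (DESeq2 adjusted p = 1.31e-13). ITGA7, the laminin receptor of muscle, had normalized counts of 773, 846 and 743 (EV libraries) against 820.0, 446 and 470.4 (HDAC8 libraries). HDAC8 1 lay among the EV values and the other 2 HDAC8 libraries below them. Its log2 change of -0.44 (DESeq2 adjusted p = 0.391) became -0.78 without HDAC8 1 (DESeq2 adjusted p = 0.0171).

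ITGA9 fell and its relative ITGA4 was not called. ITGA9 binds tenascin-C and osteopontin, and ITGA4 binds fibronectin and VCAM1. ITGA9 (ENSG00000144668, chromosome 3, 37452115 to 37823507, plus strand) gave normalized counts of 3453, 4758 and 4096 (EV libraries) against 2433, 2178 and 2171 (HDAC8 libraries). The groups did not overlap, and the log2 change was -0.86 (SE 0.17, DESeq2 adjusted p = 1.31e-05). The antisense gene ITGA9-AS1 shares 763 exon bases with it. ITGA4 had a log2 change of -0.16 (95% interval -0.55 to 0.23, DESeq2 adjusted p = 0.745) with means of 1481 ± 180.1 and 1328 ± 146.

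Among the 37 genes with an adjusted p, ITGAX fell most. The protein, CD11c, is known as an alpha chain of leukocytes that pairs with ITGB2. ITGAX (ENSG00000140678, chromosome 16, 31355134 to 31382999, plus strand) gave normalized counts of 2862, 3417 and 2698 (EV libraries) against 514, 416 and 370.2 (HDAC8 libraries). Every HDAC8 library was below every EV library. The mean fell from 2992 ± 377 to 433 ± 73.4 (SD, n = 3), a log2 change of -2.79 (SE 0.20, DESeq2 adjusted p = 1.69e-40), 0.145 times the EV level. Its partner chain ITGB2 had no count in 5 libraries and 18.5 normalized counts in HDAC8 3. Among leukocyte markers, PTPRC, which encodes CD45, was above 0 in HDAC8 1 alone at 2.6 normalized counts. CD68, a lysosomal protein also made outside leukocytes, was detected in all libraries and rose, and CD3E was at 0 in the EV libraries and between 50.1 and 91.1 normalized counts in the HDAC8 libraries. ITGAL and ITGAD were listed above 0 in 1 library each and ITGAM in 3. ITGAE, the alpha chain of intraepithelial T cells, had normalized counts of 229.6, 167 and 112 (EV libraries) against 403, 170.0 and 182 (HDAC8 libraries), overlapped, and went from 0.57 to 0.05 on the log2 scale without HDAC8 1. It shares 427 exon bases with HASPIN on the opposite strand, which had a mean count of 1429. Strand was not stated for the counts, so reads from these bases could belong to either.

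Laminin alpha chains were lower where called. LAMA1 is the alpha chain of embryonic laminin and LAMA5 that of most adult basement membranes. LAMA1 (ENSG00000101680, chromosome 18, 6941742 to 7117797, minus strand) gave normalized counts of 8184, 10192 and 8738 (EV libraries) against 3623, 3083 and 2815 (HDAC8 libraries). The HDAC8 libraries lay under all EV libraries, and the mean fell from 9038 ± 1037 to 3174 ± 412 (SD, n = 3), a log2 change of -1.51 (SE 0.15, DESeq2 adjusted p = 5.80e-20). LAMA5 (ENSG00000130702, chromosome 20, 62307955 to 62367312, minus strand) gave normalized counts of 7952, 10540.4 and 6966 (EV libraries) against 6269.5, 3851 and 4347 (HDAC8 libraries). HDAC8 1 came near EV 3 without overlap, and the log2 change was -0.81 (SE 0.20, DESeq2 adjusted p = 8.98e-04). LAMA4, a chain of vessel walls and the laminin alpha chain of highest level per kb, had normalized counts of 16958, 20609 and 20177 (EV libraries) against 20167, 21170.2 and 20846 (HDAC8 libraries). It overlapped between groups with a log2 change of 0.11 (95% interval -0.14 to 0.36, DESeq2 adjusted p = 0.727). Of the endothelial markers, CDH5 was at 0, none was called, and their sum overlapped at 97.5 to 202.9 normalized counts in the EV libraries and 114.3 to 218 in the HDAC8 libraries.

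Of the 4 laminin beta chains, LAMB1 and LAMB3 were called higher, and LAMB2 and LAMB4 were not called. LAMB1, the beta chain of highest level, joins LAMA1, LAMA4 or LAMA5 in laminins, and LAMB3 belongs to the laminin that anchors epidermis. LAMB1 (ENSG00000091136, chromosome 7, 107923799 to 108003213, minus strand) gave normalized counts of 29294, 36676 and 33744 (EV libraries) against 71600.2, 54912 and 56195 (HDAC8 libraries). The lowest HDAC8 library was well above the highest EV library, and HDAC8 1 was the highest. The mean rose from 33238 ± 3717 to 60902 ± 9287 (SD, n = 3), a log2 change of 0.87 (SE 0.14, DESeq2 adjusted p = 9.56e-08). LAMB3 (ENSG00000196878, chromosome 1, 209614870 to 209652425, minus strand) gave normalized counts of 171, 276 and 324 (EV libraries) against 884, 444 and 688 (HDAC8 libraries). Its libraries spread widely within each group without overlap, and the log2 change was 1.39 (SE 0.36, DESeq2 adjusted p = 0.00173). LAMB2, which replaces LAMB1 at synapses and in the kidney, had normalized counts of 3665, 5685 and 4272 (EV libraries) against 4457, 2747 and 2787 (HDAC8 libraries). HDAC8 1 again lay among the EV values. The log2 change was -0.45 (DESeq2 adjusted p = 0.179) and -0.72 without HDAC8 1 (DESeq2 adjusted p = 5.75e-04).

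The gamma chains were not called. LAMC1, the common gamma chain, had normalized counts of 26389, 32327 and 29683 (EV libraries) against 27242, 25538 and 25858 (HDAC8 libraries). These overlapped, with a log2 change of -0.17 (95% interval -0.41 to 0.08, DESeq2 adjusted p = 0.476). LAMC3 had a log2 change of 0.10 (95% interval -0.49 to 0.70, DESeq2 adjusted p = 0.918) with means of 835 ± 339.9 and 898 ± 204. LAMA3, the alpha chain that joins LAMB3 in the epidermal laminin, was low. It had normalized counts of 70.3, 46.7 and 11.8 (EV libraries) against 154, 127 and 96.9 (HDAC8 libraries), with a log2 change of 1.55 (SE 0.72, DESeq2 adjusted p = 0.156). The groups did not overlap, and it was not called. With at least 10 counts required in every library it was called, which made 8 higher members. Keratinocyte markers summed to 146.6 to 280 normalized counts in the EV libraries and 165.5 to 176.2 in the HDAC8 libraries, with KRT1 at 0.

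Of the genes that only share the symbol, ITGB1BP1, which encodes ICAP1, a protein that binds the ITGB1 tail and restrains it, was called lower. ITGB1BP1 (ENSG00000119185, chromosome 2, 9403475 to 9423528, minus strand) gave normalized counts of 1815, 1703 and 1796 (EV libraries) against 1136, 789.6 and 1135 (HDAC8 libraries). The groups did not overlap, and the log2 change was -0.80 (SE 0.21, DESeq2 adjusted p = 0.00227). ASAP2, on the opposite strand, shares 2209 exon bases with it and was not called (0.18, DESeq2 adjusted p = 0.608). Strand was not stated for the counts, so reads from the shared bases could belong to either. The same holds for 300 exon bases of LAMB1 shared with DLD and 244 of LAMA5 shared with ADRM1, genes on the opposite strand. ITGB3BP had a log2 change of -0.31 (95% interval -0.91 to 0.28, DESeq2 adjusted p = 0.632) and ITGB1BP2 reached at most 61.6 normalized counts.

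Few of the low genes could be compared. The floor of 3 counts was 2.57 to 3.27 normalized counts by library. ITGB6, an epithelial beta chain, had no count in the EV libraries or HDAC8 3 and 26.5 and 26.6 normalized counts in HDAC8 1 and HDAC8 2, on average at least 5.97-fold higher against the floor (DESeq2 adjusted p = 0.0856). ITGAL was at 21.4 normalized counts in HDAC8 1 and at 0 elsewhere. ITGB4, the laminin-binding partner of ITGA6 in epithelia, ran from 18.5 to 123.1 normalized counts with overlapping groups, and ITGB7, LAMA2, LAMB4 and ITGAM reached at most 58.1 in any library. None of these was called.

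To compare chains with each other, normalized counts were divided by the length of the longest transcript in kilobases and summed by class. The level of the beta chains per kb went from 6887 ± 237 in the EV libraries to 9611 ± 418 in the HDAC8 libraries (SD, n = 3), with no overlap, and that of the alpha chains from 10054 ± 574 to 11769 ± 1250 (two-sided exact permutation p = 0.1 and 0.2). The summed laminin beta level went from 6741 ± 846 to 11522 ± 1863 and did not overlap (exact p = 0.1). Summed laminin alpha levels went from 4349 ± 469 to 3634 ± 88.5 (exact p = 0.1), and laminin gamma levels from 3831 ± 414 to 3435 ± 136 (exact p = 0.2). The log2 ratio of the laminin alpha sums was -0.26 with the longest transcripts and 0.04 with median transcript lengths (exact p = 0.9), so its direction rests on the lengths used. With 3 against 3 libraries the test cannot go below 0.1, and after Benjamini-Hochberg adjustment over the 32 sums, ratios and shares tested the smallest value was 0.168, so none passed 0.05.

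Levels of laminin beta and alpha chains were also set against those of the gamma chains. The beta to gamma ratio of levels per kb was 1.72, 1.78 and 1.78 (EV libraries) against 3.81, 3.11 and 3.11 (HDAC8 libraries). The alpha to gamma ratio was 1.14 ± 0.00777 and 1.06 ± 0.0236 (SD, n = 3). With median transcript lengths the alpha to gamma ratio went the other way, from 4.05 ± 0.130 to 4.65 ± 0.254, again without overlap. It fell with the MANE Select reference transcript of each gene (1.135 to 1.059) and without division by length (1.215 to 1.064). Its direction thus rests on the lengths used, and median lengths alone reversed it. The beta to gamma ratio was 1.36 ± 0.0234 and 2.65 ± 0.316 with median lengths and did not change direction. Each of these ratios had the smallest exact p of 0.1, with each of these lengths.

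The share of each chain in its class was computed on the same per kb scale, and its tests belong to the same 32. ITGB5 went from 8.19% ± 1.19 to 21.0% ± 4.85 of the beta chain level and ITGB3 from 34.6% ± 2.45 to 22.0% ± 3.54 (SD, n = 3). ITGB1 stood at 55.1% ± 3.49 and 53.2% ± 7.67 with overlap. With median transcript lengths ITGB5 went from 23.2% to 48.3%, ITGB3 from 38.39% to 19.85% and ITGB1 from 36.7% to 29.3%, the last with overlap. ITGB1 had the largest mean share in both groups with the longest transcripts, but not with median lengths. It also had the largest with MANE Select transcripts (61.26% EV, 59.35% HDAC8) and without division by length (50.54% EV, 49.95% HDAC8). LAMA4 went from 61.3% ± 3.05 to 79.0% ± 3.70 of the laminin alpha level, LAMA1 from 21.6% ± 0.460 to 9.04% ± 0.950 and LAMA5 from 17.0% ± 2.57 to 11.6% ± 2.78, the last with overlap. With median transcript lengths LAMA4 went from 91.8% to 96.1%, LAMA1 from 3.26% to 1.11% and LAMA5 from 4.86% to 2.69%, all without overlap. The directions held, but the size of each share and the overlap of LAMA5 rest on the lengths used. ITGAX made up 6.38% ± 0.639 of the alpha chain level in the EV libraries and 0.805% ± 0.228 in the HDAC8 libraries, beside 41.2% ± 2.93 and 49.8% ± 7.70 for ITGA6. LAMB1 was 87.4% ± 1.30 and 93.6% ± 0.818 of the laminin beta level, and LAMC1 97.1% ± 0.937 and 96.3% ± 0.758 of the gamma level.

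**Figure D3:**
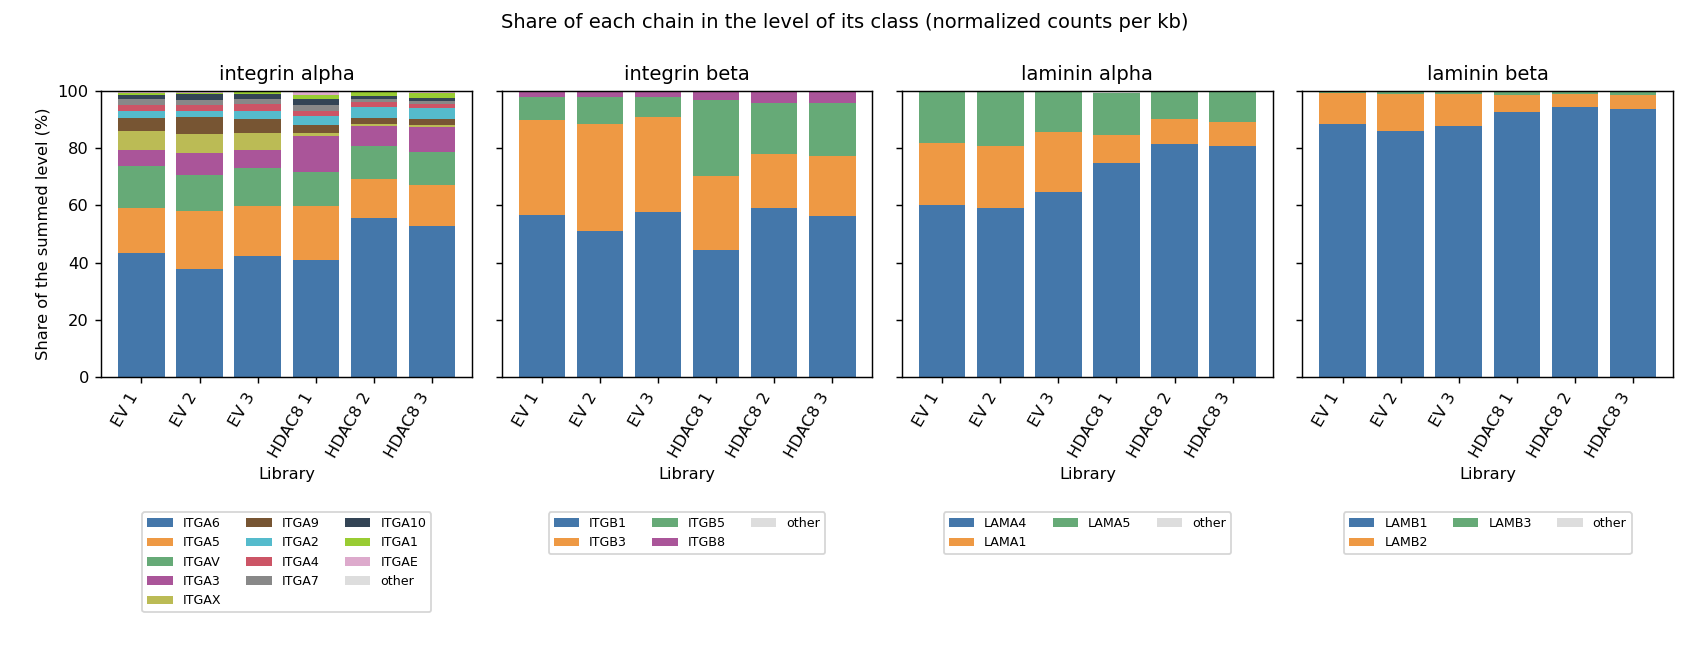
Share of each chain in the summed level of its class (%, normalized counts per kb of the longest transcript) in each of the 6 libraries, for integrin alpha, integrin beta, laminin alpha and laminin beta chains, with chains under a mean count of 100 pooled as other. The ITGB5 band widens from 8.19% to 21.0% and the LAMA1 band narrows from 21.6% to 9.04% on average. ITGB1 keeps the widest beta band in all libraries with these lengths. With median transcript lengths, not drawn here, it is not the widest on average in either group.

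Genes around the integrins and laminins were examined from 5 lists of 107 genes, chosen like the family with earlier results of these data known. Of 99 with an adjusted p, 22 were called higher and 5 lower, 27.3% beside the 11% of all genes. At a mean of 100 or more the shares were 31.7% of 82 beside 15.1%. By list the share ran from 9.09% of the membrane partners and 15.8% of the basement membrane partners, both near the share of all genes, to 46.7% of the other ligands. Their median log2 fold change was 0.15, against -0.003 for all genes.

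Basement membrane partners of laminins had 3 of 19 genes called, all higher. COL4A1 and COL4A2, the paired chains of collagen IV, which is the ligand of the ITGA1 receptor, rose from 497 ± 71.8 to 4009.9 ± 1248 and from 454 ± 119 to 5250.5 ± 1877 (SD, n = 3). Their log2 fold changes were 3.01 and 3.53 (DESeq2 adjusted p = 1.57e-37 and 2.37e-43). The heparan sulfate proteoglycans AGRN and HSPG2 were not called at 0.06 and -0.22, and the nidogens NID1 and NID2, which link laminin to collagen IV, had means under 15 in both groups.

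Other ligands of integrins had 5 of 15 higher and 2 lower. CTGF, now CCN2, a matricellular ligand, rose from 250.2 ± 47.2 to 3714 ± 166 (log2 change 3.89, DESeq2 adjusted p = 2.06e-86). TGFBI, another matrix ligand, rose by 3.44 on the log2 scale (DESeq2 adjusted p = 1.81e-13), and CYR61 (2.14), TNC (0.90) and FN1 (0.71) were called higher by less. SPP1, which encodes osteopontin, a ligand of the receptor with ITGA9, went from 1389 ± 223 to 182 ± 38 (log2 change -2.94, DESeq2 adjusted p = 1.01e-26), and THBS2 fell with a log2 change of -1.06 (DESeq2 adjusted p = 0.00372, and 0.0692 without EV 1).

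Focal adhesion adaptors and kinases had 9 of 33 higher and 2 lower. TLN2, a talin that links integrin tails to actin, rose, with normalized counts of 644, 887 and 735 (EV libraries) against 1922, 1585 and 1689 (HDAC8 libraries) and a log2 change of 1.2 (DESeq2 adjusted p = 6.62e-07). FERMT1, a kindlin, rose from 15.9 ± 15.5 to 87.2 ± 19.7 (2.46, DESeq2 adjusted p = 0.0493), a call lost in edgeR (adjusted p = 0.114). ACTN1, ACTN4, VASP, TNS3, KANK1, PARVA and ZYX were the other 7. PARVA and ZYX lost their call in limma-voom (adjusted p = 0.0682 and 0.0283, the latter with a change under the fold minimum). With DESeq2, PARVA also lost it without any 1 library other than HDAC8 1 (adjusted p from 0.0606 to 0.224), ZYX without EV 1, EV 3, HDAC8 2 or HDAC8 3 (0.0502 to 0.131), and ACTN1 without EV 1, where its change fell just under the fold minimum (adjusted p = 0.00933). The kinase SRC went from 263 ± 122 to 16.8 ± 17.7 (-3.98, DESeq2 adjusted p = 6.37e-07) and the adaptor TNS1 from 2459.8 ± 375 to 175 ± 33.6 (-3.81, DESeq2 adjusted p = 3.88e-60). The core members TLN1, VCL, PXN, ILK and PTK2 were not called, with log2 fold changes from -0.20 to 0.30.

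Other laminin receptors and the enzymes that glycosylate dystroglycan had 4 of 21 higher and 1 lower. SDC4, a syndecan of focal adhesions, rose by 0.95 on the log2 scale (DESeq2 adjusted p = 1.93e-07). POMT2 and SGCE were also called higher. POMT2 lost its call without EV 1, EV 3, HDAC8 1 or HDAC8 3 (DESeq2 adjusted p from 0.0606 to 0.14), and SGCE without EV 1, EV 2, HDAC8 2 or HDAC8 3 (0.0856 to 0.209). BCAM, a receptor for laminins with LAMA5, fell from 1110.2 ± 125 to 501 ± 77.5 (-1.15, DESeq2 adjusted p = 5.04e-05), and DAG1, dystroglycan, was not called at -0.14. Of 11 membrane partners of integrins, the tetraspanin CD9 was called higher, from 98.9 ± 36.0 to 1421 ± 212 normalized counts (3.85, DESeq2 adjusted p = 8.59e-36), and the other 10 were not.

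**Figure D4:**
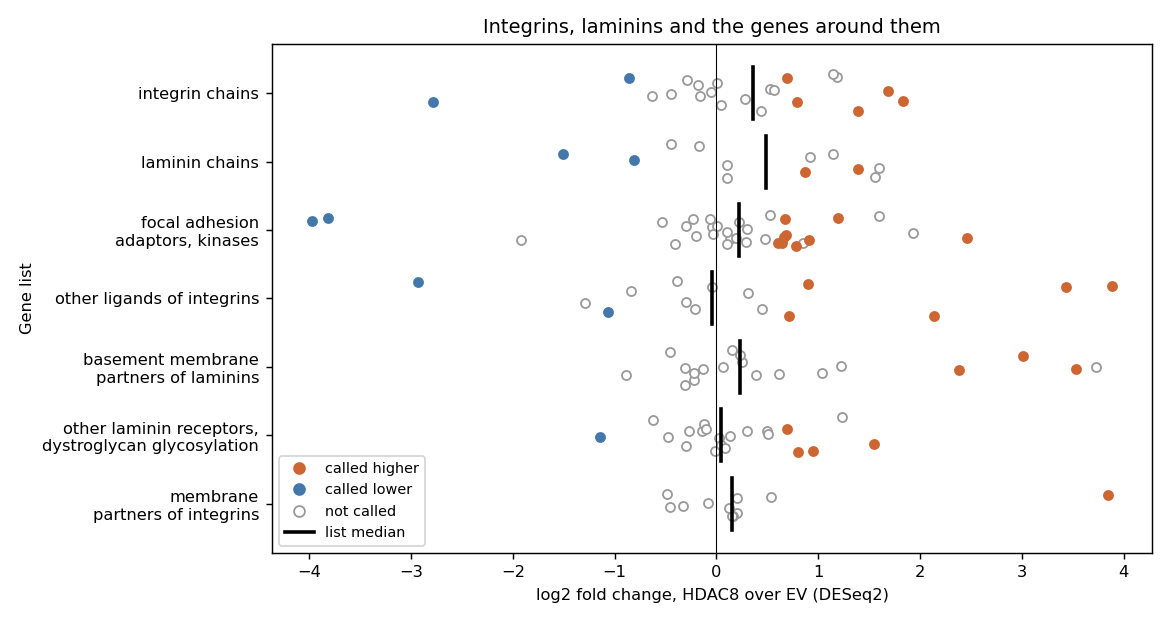
Log2 fold change of HDAC8 over EV (DESeq2, horizontal axis) for each gene with an adjusted p in the integrin chains, the laminin chains and the 5 surrounding lists, with a black bar at each list's median and the vertical position within a row without meaning. ITGB6, with no count in the EV libraries, is not drawn. Filled points to the right outnumber those to the left in the surrounding lists, 22 against 5.

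Each library was left out in turn to see how far a single one set the values. The number of called members stayed at 6 or 7 higher and ran from 5 to 7 lower. Of the 12 called members, 11 were called in the same direction in each of the 13 other fits, which include edgeR and limma-voom, and ITGA3 was the exception. Without HDAC8 1, 7 members were called higher and 7 lower, among them ITGA6 higher and ITGA7 and LAMB2 lower, and ITGA3 was no longer called.

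**Figure D5:**
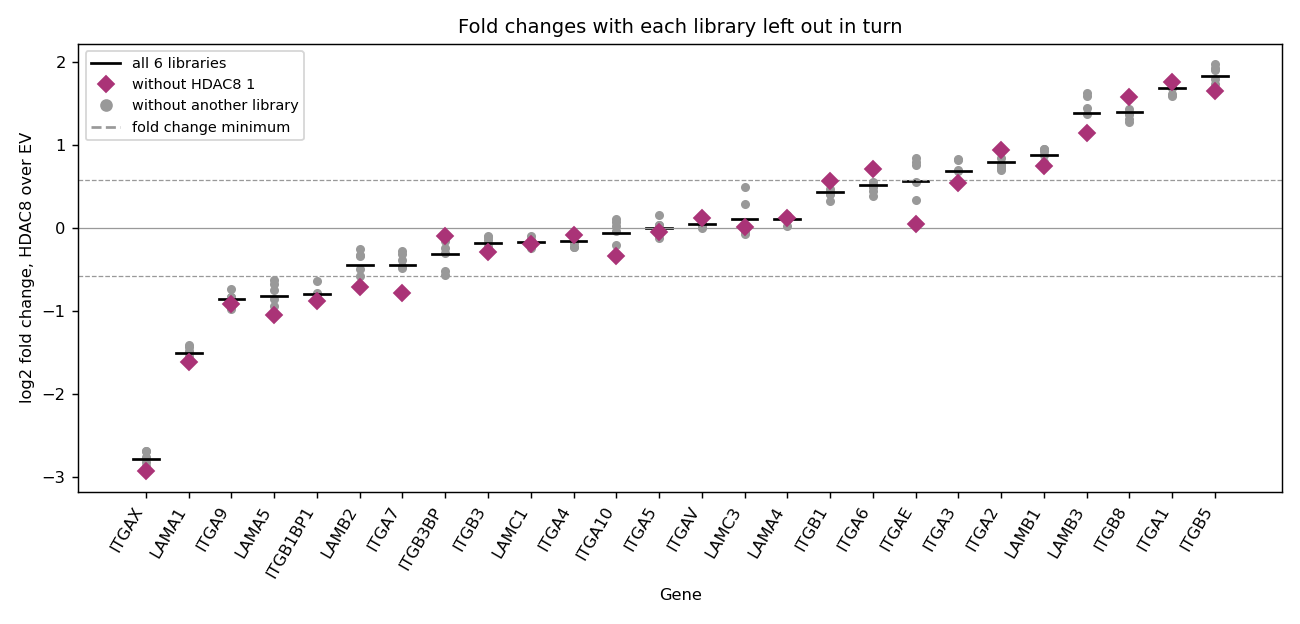
Log2 fold change (vertical axis) of the 26 integrin and laminin genes with all 6 libraries (black bars), without HDAC8 1 (purple diamonds) and without each other library (grey points), with dashed lines at the fold change minimum of 0.58. The diamonds of ITGA6, ITGA7 and LAMB2 lie outside the dashed lines where their black bars lie inside them, and every point of ITGAX, LAMA1, ITGB5 and ITGA1 lies outside the dashed lines on the side of its bar.

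Markers of other cells were low or overlapped, with exceptions. Fibroblast markers summed to 2357 to 2852 normalized counts in the EV libraries and 1148 to 2188 in the HDAC8 libraries, nearly all LUM, with DCN at 0 and no marker called. Leukocyte markers summed to 2301 to 3302 and 4273 to 6165, nearly all CD68. The part of such cells, or of the lower melanocytic markers, in the integrin and laminin differences was not tested.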

How the data were processed

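RNA-seq counts of 6 WM164 libraries were analysed. The integrin and laminin genes, and the gene lists set beside them, were chosen with earlier results of these data known. The authors trimmed paired reads with Trimmomatic, aligned them with STAR and deposited RSEM expected counts per gene, which share ambiguous reads between genes and are not scaled between libraries. The genome build, the annotation, the strand setting and the handling of duplicate reads are not given in the sources used here. Rows with an identifier but no symbol, 0.0804% to 0.102% of the counts, were kept.

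Expected counts were rounded and tested with DESeq2 1.42.0 (R 4.3.3, Wald test, two-sided, Benjamini-Hochberg adjustment) where a gene's counts summed to 10 or more. Genes without an adjusted p were left out of counts of calls. Normalized counts are counts over the DESeq2 size factors (0.918 to 1.17). All called genes of the chosen set, its other genes with a mean of at least 100, and up to 2 higher and 2 lower genes per list with a mean of at least 50 were named, apart from genes not reported here. Core adhesion genes and the remaining called genes of the lists were added after their values were seen. Of the list genes, 3 carry older symbols and were matched by identifier. Levels between genes were compared per kb of the longest GENCODE release 44 transcript, by two-sided exact permutation tests. Floors cover counting error only, since reads carried no molecular identifiers and may repeat a molecule. Libraries of a group differed by more than sampling noise.

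Alternatives were edgeR 4.0.16, limma-voom (limma 3.58.1), other size factors, count filters, a replicate block, adjusted p alone, other lengths and each library left out. In simulated data with 200 of 23615 genes changed 2-fold, DESeq2 recovered 55% with 51 false calls and no wrong sign.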

Additional observations from a re-analysis of the deposited data

How the results depend on the processing

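The counts of called members stayed within 6 to 8 higher and 5 to 7 lower over edgeR, limma-voom, other size factors, other count filters, the replicate block and the leave-one-out fits, and were 9 and 5 on adjusted p alone. The replicate block gave 7 higher and 5 lower members, 1075 higher and 1078 lower genes over the table and 20 higher and 5 lower pathway genes. Replicate numbers showed no pairing of the libraries in the counts. Same-numbered libraries had correlations of deviations of -0.027, -0.066 and 0.04, and the others ran from -0.111 to 0.15. These values cannot show whether same-numbered libraries were prepared together. Among the genes reported, PARVA lost its call under the block (adjusted p = 0.0859). With each library left out, the table held 877 to 1218 higher and 746 to 1378 lower genes against 1170 and 1143, with the fewest lower genes without EV 3, and the pathway lists held 15 to 21 higher and 4 to 7 lower. On adjusted p alone, 8 pathway genes were lower against 5. The summed laminin alpha level turned from a log2 ratio of -0.26 to 0.042 with median transcript lengths, and the log2 ratio of alpha to gamma levels from -0.10 to 0.200, lengths chosen for the ratios after the data were seen.

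Over the 26 named members, 321 of 338 alternatives kept direction and call. Genes near 0 changed sign: ITGA5 (-0.004 in edgeR, -0.119 to 0.149 with a library left out), ITGAV (-0.004 without HDAC8 2 to 0.114 without HDAC8 1), ITGA10 (0.002 with total-count size factors, -0.335 without HDAC8 1 to 0.102 without HDAC8 2) and LAMC3 (-0.071 without EV 3 to 0.489 without EV 2). The causes were not tested. FERMT1 was called in 4 of 12 other fits. Depth limits the chains under a mean of 100 normalized counts, where intervals often span several fold in both directions.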

Other observations

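Rows outside the chosen set that carry integrin or laminin names held few counts. ITGBL1, which encodes a secreted protein with integrin beta-like repeats, had 11, 1 and 0 counts (EV) against 0, 20 and 1 (HDAC8). The antisense gene ITGA9-AS1 had 106, 42 and 75 counts (EV) against 200, 89 and 52 (HDAC8), which overlapped. ITGB5-AS1 had 23 counts in HDAC8 1 and 0 in the other libraries, and ITGA6-AS1 had 0, 0 and 43 counts (EV) against 28, 34 and 35 (HDAC8). LAMC1-AS1 had no count in any library.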
